A study of Mus musculus with 12 samples.

Results

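The genes of branched-chain amino acid breakdown described here were the 10 rows named Bckdha, Bckdhb, Dbt, Dld, Bckdk, Ppm1k, Ivd, Mccc1, Mccc2 and Hibch among the 24062 genes of each count table. They were listed by gene name, with earlier results of these data known, and all 10 passed the filter on low counts. Liver RNA of 12 female C57BL/6J mice was sequenced, 6 fed a control diet and 6 fed a matched diet with BIBB-515, an inhibitor of lanosterol synthase in cholesterol synthesis, dosed at 55 mg/kg body weight for 10 days. The mice were 6 weeks old on arrival, were acclimated for 2 weeks, and were all moved from chow to the control diet 3 days before the experiment, so that both groups shared that diet, and the labels name no mutation or transgene. The experiment held 11 mice per group, and the sources used here do not say how the sequenced mice were picked from them. The control libraries carry the numbers 1 to 6 and the BIBB-515 libraries the numbers 6 to 11.

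Leucine, isoleucine and valine are first transaminated and then oxidatively decarboxylated in the mitochondrion by the branched-chain ketoacid dehydrogenase complex, the committed step that they share. The complex is switched off when its kinase phosphorylates the alpha subunit and switched on when its phosphatase removes the phosphate. Downstream, the carbon chains go separate ways, leucine through isovaleryl-CoA and methylcrotonyl-CoA and valine through methacrylyl-CoA and hydroxyisobutyrate, and the liver is known for high activity of the dehydrogenase and low activity of the transaminase.

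Read totals on genes lay between 22764819 and 31058370 per mouse. Counts were scaled to library size by the TMM method (CPM). The 12481 genes that reached 1 CPM in 2 or more mice entered edgeR's quasi-likelihood test. Adjusted p-values (FDR) were computed over all tested genes and read at 0.05, intervals are 95% intervals of the same fit, and n is 6 mice per group throughout. Of 8 hepatocyte markers, all had reads in every library and 4 were called lower with BIBB-515. The summed level of the 8 was 146000 to 163000 CPM in control mice and 109000 to 125000 CPM in BIBB-515 mice. This sum was mostly Alb, at means of 120100 and 90920 CPM. All 8 estimates were below 0, and Apoa1, Tat, Cps1 and Hnf4a were not called. Summed markers of bile duct (62.6 to 116 against 91.9 to 154 CPM), Kupffer cells (239 to 341 against 219 to 332), endothelial cells (132 to 186 against 128 to 179), stellate cells (168 to 233 against 174 to 239), leukocytes (14.4 to 20.4 against 11.6 to 20.9) and adipocytes (11.8 to 20.9 against 15.3 to 26.7, with Lep at 0) overlapped between the groups, and skeletal muscle markers summed to at most 0.767 CPM in any mouse. Over the 12 libraries together Adipoq had 2 reads, Plin1 3 and Cfd 15, so the adipocyte sum came almost wholly from Fabp4 and Cidec. The bile duct sum was mostly Spp1, at means of 82.6 and 112 CPM. Of 6 stellate cell markers 1, Lrat, which stores retinol as esters, was called lower (log2 fold change -0.81, FDR 0.0202, edgeR). The part of these marker levels in the results that follow was not tested, and in bulk liver a smaller share of a cell type and less RNA per cell cannot be told apart.

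Most differences of the breakdown genes between the diets were within the spread between mice. Mccc1, a subunit gene of the leucine enzyme methylcrotonyl-CoA carboxylase, was higher with BIBB-515 and was the single gene of the 10 past the threshold, at an FDR of 0.0493 from edgeR's quasi-likelihood test and a 1.16-fold ratio of means. This is 10% of the breakdown genes, against 13.7% of all tested genes called in either direction. At an unadjusted p under 0.05 there were 3, Mccc1, Mccc2 and Hibch, against 29.7% of all tested genes. The groups did not overlap for 1 of the 10, Hibch, against 7.07% of all tested genes. Each of these shares was near that of all tested genes. The median log2 fold change was 0.11 over the 10 genes and -0.01 over all tested genes, with 8 of the 10 estimates above 0. The plot of fold changes with their intervals shows the 10 genes beside the other genes of the pathway.

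**Figure D1:**
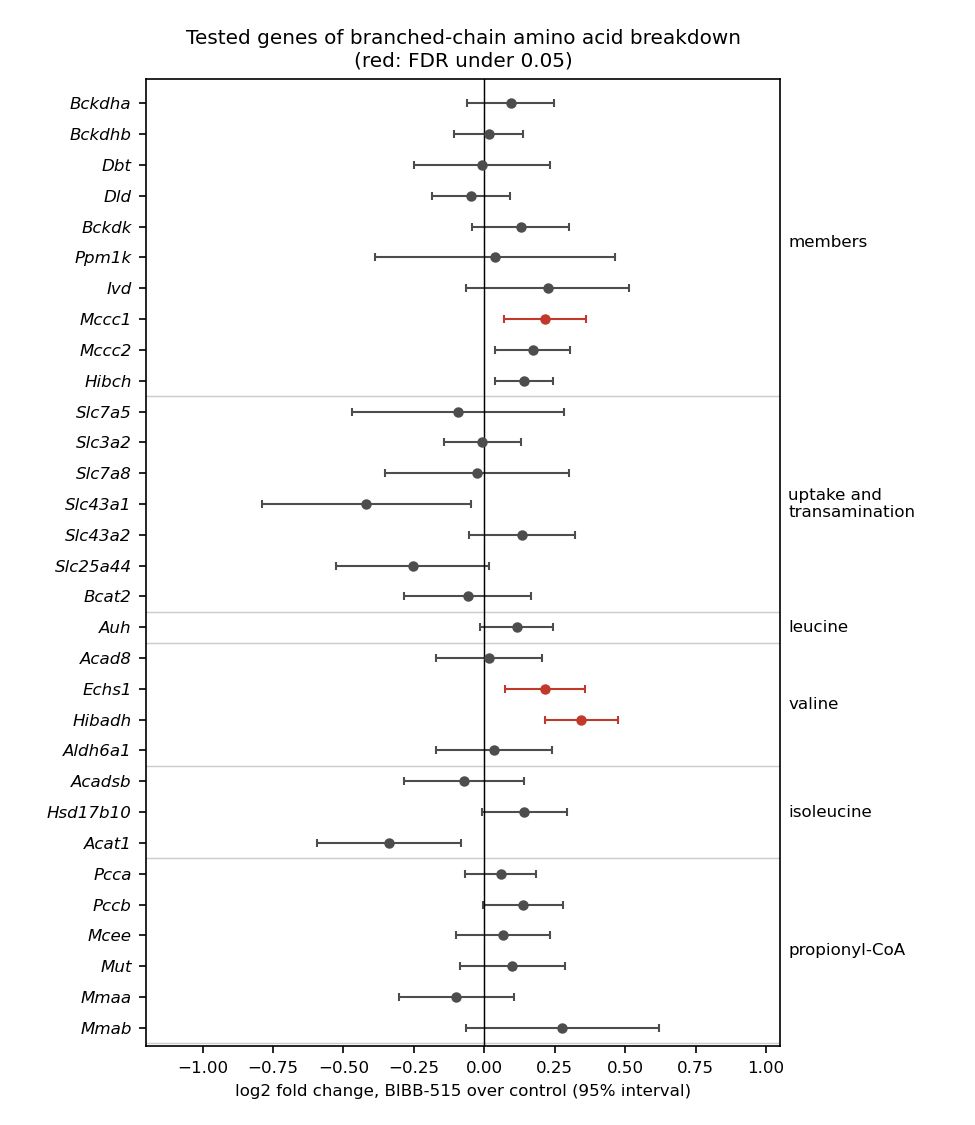
Log2 fold change of BIBB-515 over control (horizontal axis) with its 95% interval from edgeR's quasi-likelihood fit for the 10 breakdown genes and other tested genes of the pathway, 6 mice per group. Of the 10 genes in the top block, Mccc1 alone is drawn in red (FDR under 0.05), at 0.22, and the intervals of 7 include 0.

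The leucine branch was examined first, since it holds the gene with the lowest p. The 250 bases before the annotated starts of its 3 genes are shown because all 3 hold several CCAAT boxes, a common promoter motif that nuclear factor Y is known to bind. The sequences are from RefSeq (GRCm38.p6, the build the tables call mm10), on the gene's strand, and capitals mark CCAAT or its reverse complement ATTGG.
Mccc1 (chr3:36000679-36000928, minus strand): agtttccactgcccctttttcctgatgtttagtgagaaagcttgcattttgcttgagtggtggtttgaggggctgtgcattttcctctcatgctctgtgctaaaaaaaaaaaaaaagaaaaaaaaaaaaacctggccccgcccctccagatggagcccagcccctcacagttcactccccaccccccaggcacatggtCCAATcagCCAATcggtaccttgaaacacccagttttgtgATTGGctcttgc
Mccc2 (chr13:100015640-100015889, minus strand): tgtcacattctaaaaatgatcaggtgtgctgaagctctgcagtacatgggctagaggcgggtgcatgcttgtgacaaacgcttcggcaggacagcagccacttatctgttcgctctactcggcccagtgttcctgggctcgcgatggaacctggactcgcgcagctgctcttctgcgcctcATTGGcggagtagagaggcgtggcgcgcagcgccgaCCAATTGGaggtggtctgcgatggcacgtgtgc
Ivd (chr2:118861744-118861993, plus strand): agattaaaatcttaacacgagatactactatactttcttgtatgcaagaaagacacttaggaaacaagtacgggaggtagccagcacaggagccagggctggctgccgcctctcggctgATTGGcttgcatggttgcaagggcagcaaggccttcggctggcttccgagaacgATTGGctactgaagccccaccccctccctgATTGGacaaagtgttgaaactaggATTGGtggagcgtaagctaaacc
Over windows from 250 bases before to 50 after the start, CCAAT on either strand occurred 4 times in Ivd, 3 times in Mccc1 and 3 times in Mccc2, where a pair of matches overlap in 1 palindrome. RefSeq windows were matched for 9 of the 10 genes, all but Dbt, and Bckdhb had a pair of them. Of these 10 windows 8 held CCAAT, against 37.4% of 32851 such windows of all genes. Counted by gene this was 7 of 9, and in 1 of the Bckdhb windows the only match lay after the start. More than 1 match was also found outside the leucine branch, with 2 each in Ppm1k, Dld and the other Bckdhb window. The windows of all genes were not limited to genes tested here, and the difference in share was not tested. The nuclear receptor site AGGTCA was found in 2 of the 10 windows, against 16.3% of all windows, and the antioxidant response element TGACNNNGC in 2 of 10, against 12.4%. Neither the estrogen-related receptor element TNAAGGTCA, which contains AGGTCA (1.28% of all windows), nor the sterol regulatory element TCACNCCAC (1.24%) was found in any of the 10. A match describes letters only, and was not read as a bound site.

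Ivd, which encodes isovaleryl-CoA dehydrogenase and lies at chr2:118862000-118881357 (mm10, plus strand), ranged from 111 CPM over a median of 159 to 203 CPM in control mice and from 161 over 183 to 195 CPM in BIBB-515 mice. The BIBB-515 values all fell inside the control range. Control mice 3 and 4, at 117 and 111 CPM, were below the other control mice. The log2 fold change was 0.23, with an interval of -0.06 to 0.51 and an FDR of 0.287 (edgeR). It was the largest estimate among the 10 genes and, after Ppm1k, the least precise.

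Mccc1 encodes the biotin-carrying subunit of methylcrotonyl-CoA carboxylase and lies at chr3:35959306-36000678 (minus strand), where its exons overlap those of Mccc1os on the other strand. In the control mice it ranged from 45.6 CPM (mouse 6) over a median of 54.1 to 61.4 CPM (mouse 2). With BIBB-515 it ranged from 60.6 over 62.4 to 66.6 CPM. The lowest BIBB-515 mouse stood above the mean of the control mice, and the groups overlapped only through control mouse 2. The means were 54.1 ± 5.63 CPM and 62.9 ± 2.20 CPM (SD, n = 6). The log2 fold change between them was 0.22, with a standard error of 0.07 and an interval of 0.07 to 0.36. The exact two-sided permutation test on log2 CPM gave an unadjusted p of 0.00649, where the smallest p that 6 mice against 6 allow is 0.00216. The call sat at the threshold. It held in 6 of 8 fits with other settings, with an FDR of 0.0223 to 0.0787, and was lost without a filter on low counts (FDR 0.0633) and with 1 surrogate variable (FDR 0.0787). With 1 mouse left out it held in 2 of 12 fits, those without control mouse 2 or 3, and was lost without control mouse 1, 4, 5 or 6 and without any single BIBB-515 mouse, the log2 fold change then lying between 0.18 and 0.26 and the FDR between 0.0201 and 0.10.

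The partner subunit gene Mccc2, at chr13:99948532-100015639 (minus strand), was close to Mccc1 in its difference. Its control values ran from 56.6 over a median of 66.1 to 72.6 CPM and its BIBB-515 values from 70.4 over 73.5 to 77.6 CPM. Each BIBB-515 value exceeded the mean of the control mice, and control mouse 5 at 72.6 CPM lay within the BIBB-515 range. The log2 fold change was 0.17 (standard error 0.06, interval 0.04 to 0.31), with an FDR of 0.0810 that did not pass the threshold and an exact permutation p of 0.00866. It passed with DESeq2 (FDR 0.0431) and without control mouse 5 (FDR 0.0372, edgeR). The log2 ratio of Mccc1 to Mccc2 per kb of annotated length was -0.77 ± 0.17 in control mice and -0.72 ± 0.05 in BIBB-515 mice (SD, n = 6), so the balance of the subunit transcripts moved by less than the spread among the control mice.

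Of the later leucine steps, Auh, which hydrates methylglutaconyl-CoA, was at 28.1 ± 1.98 and 30.4 ± 1.49 CPM (SD, n = 6), with a log2 fold change of 0.11 (interval -0.01 to 0.24, FDR 0.221, edgeR). It did not pass the threshold.

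On the valine branch, Hibch encodes the hydrolase that frees hydroxyisobutyrate from its CoA ester and lies at chr1:52845046-52920860 (plus strand). Control values ran from 65.9 over a median of 71.1 to 74.4 CPM, and BIBB-515 values from 76.1 over 78.5 to 80.6 CPM. Every BIBB-515 mouse was above every control mouse, and the gap between the groups was small. The log2 fold change was 0.14 (standard error 0.05, interval 0.04 to 0.24). The FDR was 0.0622 from edgeR's quasi-likelihood test, short of the threshold. The exact permutation test gave an unadjusted p of 0.00216, its smallest, which restates that the groups did not overlap. DESeq2 gave an FDR of 0.0113, and the FDR ranged from 0.0113 to 0.120 over 8 other settings and from 0.0509 to 0.124 with 1 mouse left out.

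The gene of the step after Hibch passed the threshold with a larger estimate than any of the 10. Hibadh, which oxidises hydroxyisobutyrate, ranged from 261.3 over 269 to 291 CPM in control mice and from 323 over 341 to 383 CPM with BIBB-515, with no overlap. It rose by 0.34 on the log2 scale, with a standard error of 0.06, an interval of 0.21 to 0.47 and an FDR of 0.00210 (edgeR), a 1.27-fold ratio of means, and was called in all 8 other settings and in all 12 fits with 1 mouse left out. Echs1, the enoyl-CoA hydratase that valine breakdown shares with fatty acid oxidation, rose from 257 ± 21.9 to 298 ± 10.2 CPM (SD, n = 6), by 0.21 on the log2 scale (standard error 0.07, FDR 0.0434, edgeR), but its call was lost without a low count filter, with 1 surrogate variable, with edgeR's likelihood ratio test and in 10 of 12 fits with 1 mouse left out. Acad8, the isobutyryl-CoA dehydrogenase gene, stood at 62.2 ± 9.73 and 62.9 ± 2.19 CPM (log2 fold change 0.02, FDR 0.921). Aldh6a1, which encodes methylmalonate semialdehyde dehydrogenase and overlaps Ccdc176 on the other strand, stood at 339.8 ± 56.3 and 348 ± 10.5 CPM (log2 fold change 0.03, FDR 0.847). The sign of both turned without control mouse 3 or 4.

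**Figure D2:**
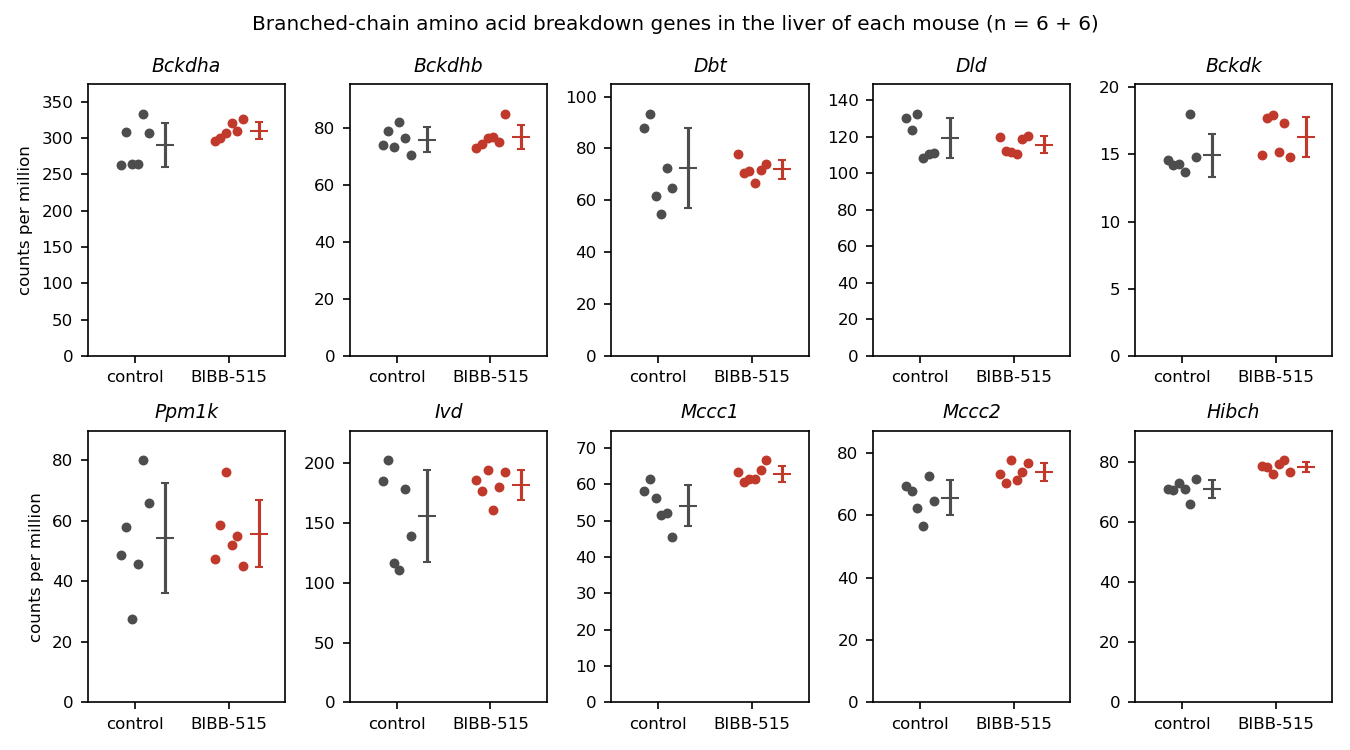
CPM (vertical axes, each starting at 0) of the 10 breakdown genes in each control mouse (grey) and BIBB-515 mouse (red), with the mean and SD of 6 mice beside the points. The BIBB-515 points of Hibch lie above all control points (76.1 against 74.4 CPM), those of Mccc1 and Mccc2 overlap the control points at the edge, and the control points of Dbt, Ppm1k and Ivd are spread widely.

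No subunit gene of the shared dehydrogenase complex passed the threshold. Bckdha, the gene of the alpha subunit of the decarboxylase (chr7:25629852-25658761, minus strand), ran from 263.5 over 286 to 334 CPM in control mice and from 296 over 308 to 326 CPM with BIBB-515. The BIBB-515 range lay inside the control range, and the log2 fold change was 0.09 (interval -0.06 to 0.25, FDR 0.418, edgeR). In the GENCODE transcripts, 49.6% of the 50-base words of Bckdha also occur in transcripts assigned to its neighbour B3gnt8, while the tables' own annotation shows no overlap. Bckdhb, the gene of the beta subunit (chr9:83948781-84124240, plus strand), ran from 70.4 over 75.4 to 82.2 CPM and from 73.0 over 75.7 to 85.0 CPM. Its groups overlapped nearly wholly, with a log2 fold change of 0.02 and an interval of -0.11 to 0.14 (FDR 0.887, edgeR), and leaving out BIBB-515 mouse 11, the highest, gave -0.02.

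Dbt encodes the core acyltransferase of the complex (chr3:116513079-116549981, plus strand). Its control mice fell between 54.8 and 93.4 CPM with a median of 68.6, and its BIBB-515 mice between 66.7 and 77.7 CPM with a median of 71.5. Control mice 1 and 2, at 87.9 and 93.4 CPM, stood above every BIBB-515 mouse, and control mice 3, 4 and 6, at 61.6, 54.8 and 64.7 CPM, below every one. The means were thus alike, 72.5 ± 15.3 and 72.0 ± 3.70 CPM (SD, n = 6), with a log2 fold change of -0.01 (interval -0.25 to 0.23, FDR 0.968, edgeR). The sign turned with limma-voom (0.02) and without control mouse 1 (0.05), control mouse 2 (0.08) or BIBB-515 mouse 9 (0.01). Dld, whose dihydrolipoamide dehydrogenase serves this complex and also the pyruvate, oxoglutarate and glycine complexes (chr12:31331562-31351471, minus strand), ran from 108 over 117.5 to 133 CPM in control mice and from 111 over 115.5 to 120.5 CPM with BIBB-515. Its log2 fold change was -0.05 (interval -0.19 to 0.09, FDR 0.679, edgeR).

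The regulators of the complex did not pass the threshold either. Bckdk, the kinase gene (chr7:127904073-127909664, plus strand), ran from 13.7 over 14.4 to 18.0 CPM in control mice and from 14.8 over 16.3 to 17.9 CPM with BIBB-515. The control mice other than mouse 5 were at 14.8 CPM or less, the level of the lowest BIBB-515 mouse, and mouse 5 was above every BIBB-515 mouse. The log2 fold change was 0.13 (interval -0.04 to 0.30, FDR 0.303, exact permutation p = 0.0931), and without control mouse 5 it was 0.20 (FDR 0.0768, edgeR). Ppm1k, the phosphatase gene (chr6:57506502-57535426, minus strand), varied most. Its control mice ranged from 27.4 (mouse 3) over 53.4 to 80.03 CPM (mouse 5) and its BIBB-515 mice from 45.1 over 53.5 to 76.2 CPM (mouse 8). The interval of its log2 fold change of 0.04 reached from -0.39 to 0.47 (FDR 0.922, edgeR), and the sign turned without control mouse 3 (-0.09) or BIBB-515 mouse 8 (-0.07). This interval includes both 0 and the log2 fold change of Mccc1, so for Ppm1k a difference of that size could not be told from none. The log2 ratio of Bckdk to Ppm1k in CPM was -1.80 ± 0.46 in control mice and -1.76 ± 0.17 in BIBB-515 mice (SD, n = 6).

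Levels of different genes were compared per kb of annotated exon length. In control mice Bckdha was highest at 164 ± 17.0 CPM per kb, followed by Ivd at 75.2 ± 18.6, Bckdhb at 54.3 ± 3.04, Dld at 52.4 ± 4.74, Hibch at 41.6 ± 1.69, Mccc2 at 30.9 ± 2.65, Dbt at 22.0 ± 4.65, Mccc1 at 18.2 ± 1.89, Ppm1k at 9.77 ± 3.25 and Bckdk at 5.22 ± 0.550 CPM per kb (SD, n = 6). The ranges of neighbours overlapped between Ivd and Bckdhb, Bckdhb and Dld, Mccc2 and Dbt, Dbt and Mccc1, and Ppm1k and Bckdk, so these places in the order were not separate. The order of the means was the same with BIBB-515. Within the decarboxylase, the log2 ratio of Bckdha to Bckdhb per kb was 1.59 ± 0.17 in control mice and 1.67 ± 0.04 in BIBB-515 mice (SD, n = 6).

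The order of kinase and phosphatase depended on which exons were read. The last exon of Ppm1k spans 4348 bases and drew 84.8% of the gene's exon counts in control mice, whereas the 1498-base last exon of Bckdk drew 20.5%. Over inner exons, those between the first and the last, Bckdk was at 14.3 ± 2.21 CPM per kb and Ppm1k at 7.18 ± 2.25 CPM per kb in control mice (SD, n = 6), and the log2 ratio of Bckdk to Ppm1k was above 0 in all 12 mice, from 0.53 to 1.67 in control mice and from 0.59 to 1.44 with BIBB-515. Over the whole annotated length the same ratio was -0.83 ± 0.46 and -0.80 ± 0.17. The inner exons also put Mccc1, at 39.2 CPM per kb, above Dbt, at 32.6, with overlapping ranges, and left the other 6 genes in the same order. In these exon tables a read that spans a junction counts for each exon it touches, so the inner values are not on the scale of the whole length. Bckdk has 10 inner exons over 1262 bases and Ppm1k 5 over 1065 bases. Such reads can thus weigh unequally on their ratio and on the shares of their last exons, and the size of this was not tested. Reading inner exons alone was chosen after the exon values had been seen.

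**Figure D3:**
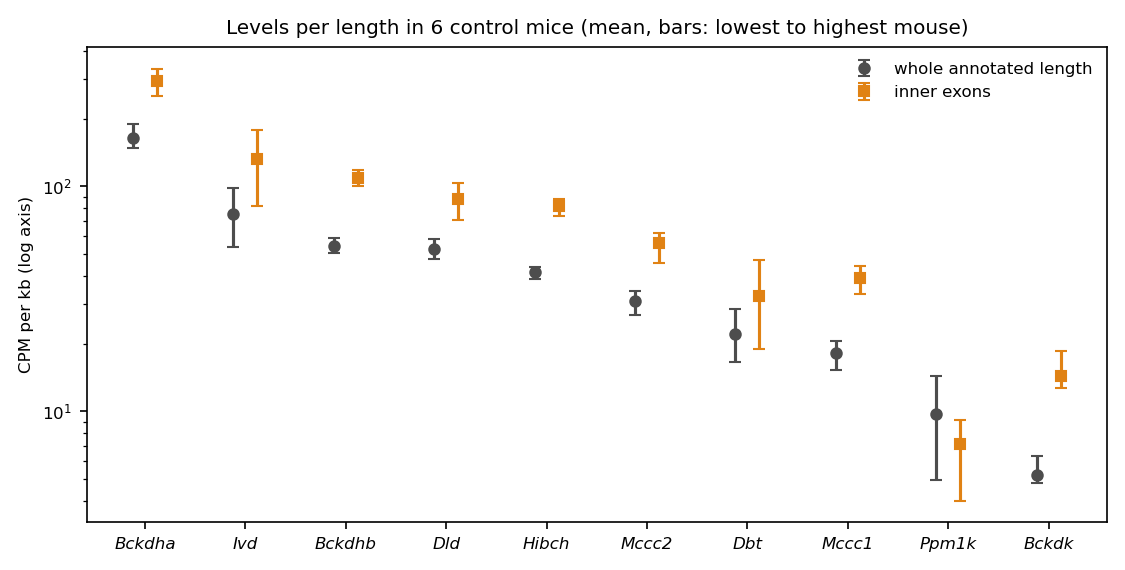
CPM per kb (vertical log axis) of the 10 genes in the 6 control mice, over the whole annotated length (circles) and over inner exons (squares), with bars from the lowest to the highest mouse. Bckdk lies below Ppm1k over the whole length (5.22 against 9.77) and above it over inner exons (14.3 against 7.18).

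The exon tables also give the ratio of the group means along each transcript, with no test of single exons. With at least 10 counts in every library, 19 of 19 exon rows of Mccc1, 17 of 17 of Mccc2, 14 of 14 of Hibch, 12 of 12 of Ivd and 9 of 9 of Bckdha had a higher mean with BIBB-515, as did 7 of 7 rows of Ppm1k, 10 of 11 of Bckdk, 8 of 10 of Dbt, 6 of 14 of Dld and 6 of 11 of Bckdhb. Rows of 1 gene share reads and mice and are not separate measurements. In Ivd the log2 ratios of the rows were even, from 0.18 to 0.29. In Mccc1 they ran from 0.09 to 0.30, and in the last exon, of 824 bases, the log2 ratio was 0.10 against 0.24 over the inner exons. Hibch had its largest ratio, 0.37, in its second exon and 0.09 in its last, of 598 bases. In Ppm1k the log2 ratio was 0.01 in the last exon and 0.31 over the inner exons, where the lowest library held 10 to 46 counts per row, and the inner exon ranges overlapped (4.00 to 9.11 against 5.52 to 11.2 CPM per kb). Only 1 of all these rows, in Mccc1, had no overlap between the groups.

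**Figure D4:**
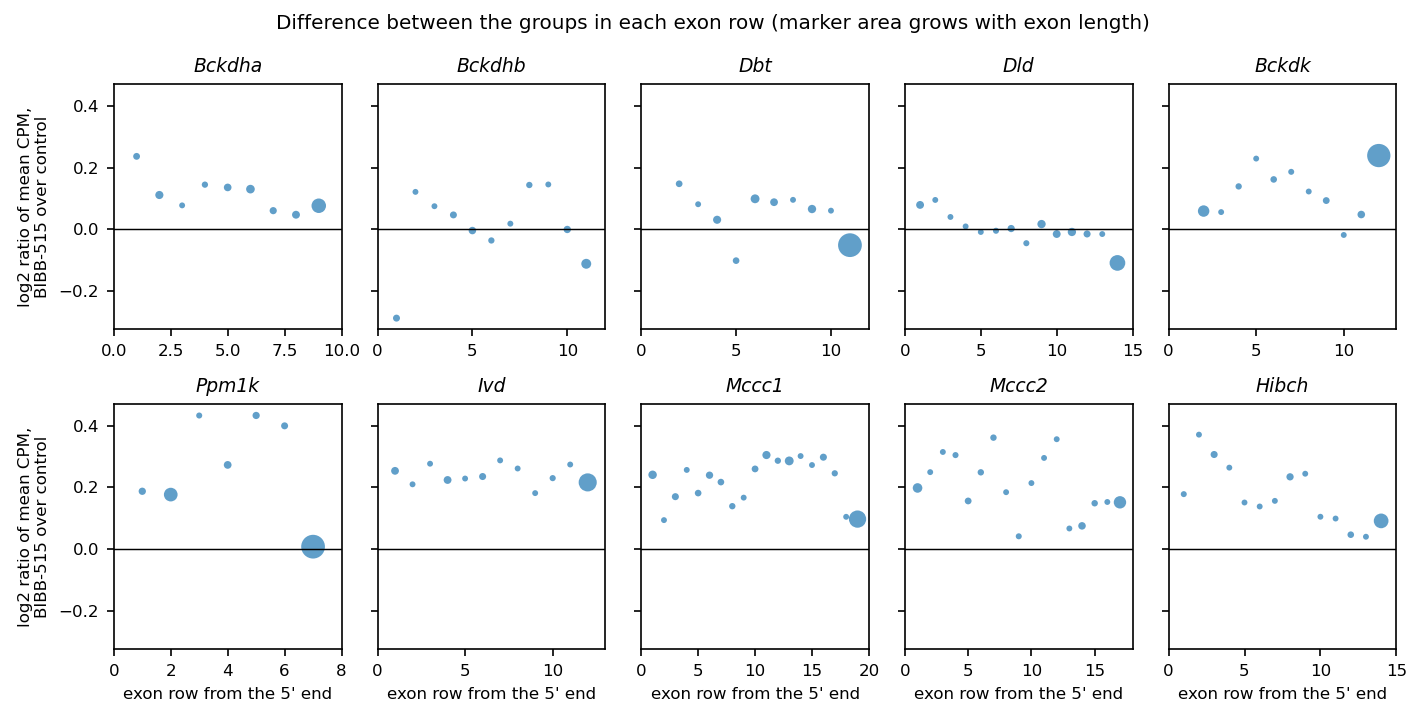
Log2 ratio of the group means of CPM, BIBB-515 over control (vertical axis), for each exon row with at least 10 counts in every library, ordered from the 5' end (horizontal axis), with marker area growing with exon length. All rows of Mccc1, Mccc2, Hibch, Ivd and Bckdha lie above 0, and the large last exon of Ppm1k lies near 0 (0.01) while its other rows lie at 0.18 to 0.43.

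The mice of the BIBB-515 group resembled each other more than the control mice did. The SD of log2 CPM was smaller with BIBB-515 in all 10 breakdown genes, with a median of 0.066 against 0.145 in control mice. It was smaller in 19 of the 22 other tested pathway genes and in 77.9% of all tested genes, where the medians were 0.131 and 0.197. The contrast was wide in Ivd, at 0.367 in control mice and 0.101 with BIBB-515, in Ppm1k, at 0.532 and 0.269, and in Dbt, at 0.301 and 0.074, and it was slight in Bckdhb, at 0.080 and 0.078. Without control mouse 3, the SD was still smaller with BIBB-515 in all 10 genes and in 73.8% of all tested genes. These are descriptions with no test, since the genes share the same mice.

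**Figure D5:**
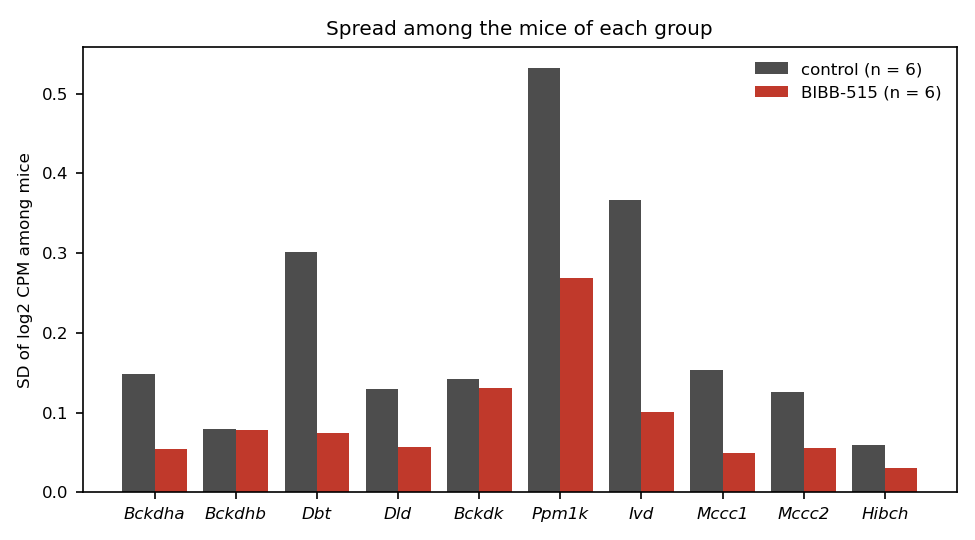
SD of log2 CPM among the 6 mice of each group (vertical axis, from 0) for the 10 breakdown genes, control in grey and BIBB-515 in red. The red bar is the lower in every gene, with wide gaps in Ivd (0.367 against 0.101), Ppm1k (0.532 against 0.269) and Dbt (0.301 against 0.074).

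Among the other genes of the pathway, 23 were in the tables, 22 were tested and 2 were called, Hibadh and Echs1, both higher, which is 9.09% against the 13.7% of all tested genes. Of the 7 tested genes of uptake and transamination none was called, and 6 of the 7 estimates were below 0, with a median of -0.06. At an unadjusted p under 0.05 there was 1 of these 7, Slc43a1, which was called lower without control mouse 6 (log2 fold change -0.53, FDR 0.0312). Bcat2, the mitochondrial transaminase gene, which overlaps 0610005C13Rik on the other strand, was at 38.5 ± 6.85 and 37.0 ± 3.12 CPM (log2 fold change -0.06, FDR 0.754), and its cytosolic counterpart Bcat1 had 1 count in all 12 libraries together. Slc25a44, the mitochondrial carrier of branched-chain amino acids, was at 115.5 ± 30.4 and 96.9 ± 4.58 CPM (log2 fold change -0.25, FDR 0.199). Control mouse 3 stood apart at 175 CPM, with 113.5 CPM as the next highest, and without it the log2 fold change was -0.09.

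No gene of the isoleucine steps or of propionyl-CoA use passed in edgeR's quasi-likelihood test, although 1 of the 9, Acat1, had an unadjusted p under 0.05. Acat1, the thiolase that also takes part in ketone body metabolism, was at 501 ± 99.6 and 396 ± 37.9 CPM with a log2 fold change of -0.34 (interval -0.60 to -0.08, FDR 0.0730). It was called lower with DESeq2 (FDR 0.0368) and without control mouse 2 or 3 (FDR 0.0450 and 0.0179, edgeR). Acadsb, the short branched-chain acyl-CoA dehydrogenase gene, was at 92.0 ± 16.2 and 87.5 ± 3.24 CPM (log2 fold change -0.07, FDR 0.675). The propionyl-CoA carboxylase genes Pcca, at 83.9 ± 6.28 and 87.3 ± 3.20 CPM (FDR 0.553), and Pccb, at 164 ± 14.8 and 180.3 ± 6.32 CPM (FDR 0.186), had log2 fold changes of 0.06 and 0.14 (edgeR; all SD, n = 6).

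Of the genes around the pathway, 34 were tested and 5 called, which is 14.7% against the 13.7% of all tested genes. Dld also serves the glycine cleavage system, whose decarboxylase gene Gldc had no overlap between the groups, from 133 over 175 to 211 CPM in control mice and from 263 over 287 to 366 CPM with BIBB-515. It rose by 0.77 on the log2 scale, with a standard error of 0.11 and an FDR of 0.000615 (edgeR), and was the single call among 10 genes of the other complexes that use Dld. Slc5a6, a transporter of biotin, the cofactor of Mccc1, rose from 16.1 ± 3.57 to 23.5 ± 4.70 CPM (log2 fold change 0.55, FDR 0.0243, edgeR). It overlaps Atraid on the other strand, and its call was lost without control mouse 1 or without BIBB-515 mouse 7 or 8, at FDRs of 0.0525, 0.0536 and 0.0516. Lipt2, of the synthesis of lipoate, the cofactor of Dbt, fell from 5.25 ± 1.082 to 3.74 ± 0.191 CPM (log2 fold change -0.49, FDR 0.0226, edgeR), and its call was lost with 1 surrogate variable (FDR 0.0514) and without BIBB-515 mouse 9 (FDR 0.0507).

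Of 6 regulator genes 2 were called, 1 higher and 1 lower (33.3%, against 13.7% of all tested genes). At an unadjusted p under 0.05 in edgeR's quasi-likelihood test there were 3, against 29.7% of all tested genes, and 5 of the 6 estimates were below 0. The one of these 3 that was not called was Ppara (log2 fold change -0.27, FDR 0.165, edgeR). Ppargc1a, a coactivator of mitochondrial genes, fell from 24.7 ± 9.29 to 14.3 ± 2.31 CPM (log2 fold change -0.79, FDR 0.0139, edgeR), and Esrra, a nuclear receptor that it partners, rose from 38.6 ± 4.87 to 50.5 ± 5.00 CPM (log2 fold change 0.39, FDR 0.0110, edgeR) and overlaps Trmt112 on the other strand. Klf15, a factor known to raise amino acid breakdown genes, was at 189 ± 48.5 and 167 ± 17.4 CPM (log2 fold change -0.18, FDR 0.424, and -0.03 without control mouse 2), and Mlxipl, the carbohydrate response factor, at 451 ± 118 and 383 ± 21.9 CPM (log2 fold change -0.24, FDR 0.271, and -0.14 or -0.12 without control mouse 3 or 4). Pdk4, a kinase of the related pyruvate dehydrogenase complex, was at 21.4 ± 7.40 and 15.9 ± 6.27 CPM (log2 fold change -0.42, FDR 0.287). None of the 6 tested pyruvate dehydrogenase kinase and phosphatase genes was called in the main edgeR fit. Of these 1, Pdk2, had an unadjusted p under 0.05 in that fit and lay near the threshold (log2 fold change 0.28, FDR 0.0583).

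The 3 genes whose profile over the 12 mice, centred on the control mean, was most like that of Mccc1 among 11168 genes compared were Sephs2, Shpk and Fig4. Their root mean square differences from Mccc1 were 0.068, 0.068 and 0.069 on the log2 CPM scale, and their log2 fold changes were 0.19, 0.26 and 0.21. None of the other 9 breakdown genes was among these 3.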

How the data were processed

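Liver RNA of 12 mice was sequenced, and the authors deposited, for each mouse, raw counts of reads per gene, per exon and per transcript. Per the file headers, the deposited counts were made with featureCounts 1.6.3 and a UCSC annotation of mm10, unstranded and, for the gene tables, leaving out multimapping reads and reads shared by overlapping genes. STAR 2.5.3a is listed in the submitters' processing notes, and its settings and the library preparation are not given in the sources used here. Unstranded counting cannot separate a gene from an antisense neighbour such as Mccc1os, whose exons overlap Mccc1. In the authors' tables of primary alignments, which count such reads for each gene, Mccc1 held 1.02 times the reads. The transcript tables were not used.

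A gene entered the test if it reached 1 CPM in 2 of the 12 samples (10%), which left 12481 of 24062. After TMM normalization, a quasi-likelihood model with diet and no covariate was fitted in edgeR 4.0.16 (R 4.3.3), with Benjamini-Hochberg adjustment over these genes. Single genes were also compared on the log2 CPM scale (prior count 2) by an exact two-sided permutation test over 924 labelings. Totals were 22764819 to 31058370 counts per mouse, and the common biological coefficient of variation was 0.143. The series' design text gives 6 mice per diet, and the titles number the samples. No pair of libraries agreed within sampling noise. Alternatives were upper-quartile normalization, DESeq2 1.42.0, limma-voom (limma 3.58.1), edgeR's likelihood ratio test, no filter, at least 1 CPM in 6 samples, the primary alignment tables, 1 surrogate variable (sva 3.50.0) and leaving out each mouse. Words of 50 bases were matched in GENCODE transcripts of GRCm38.

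Genes named were the 10 breakdown genes, fixed genes of the pathway and its regulators, up to 5 genes per list with the lowest p among those past the threshold, and the 3 most like Mccc1. A gene that falls under this rule is not reported here, although it stays in every count. Acat1, Slc43a1, Pdk2, Ppara, Lrat and the other single marker genes were named after their values were seen. The breakdown genes and lists were chosen with earlier results of these data known.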

Additional observations from a re-analysis of the deposited data

Results flagged for a closer look

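Among the 60 groups of 6 mice examined, over the named genes, 7 had a mouse far from the others. Chance would give about 3 if the groups were independent, which genes measured in the same mice are not. The gap share is the distance from the far mouse to the next, divided by the range of its group. Among the breakdown genes these were Bckdk, with control mouse 5 highest at 18.0 CPM against 14.8 CPM for the next (gap share 0.747), and Bckdhb, with BIBB-515 mouse 11 highest at 85.0 against 76.9 CPM (gap share 0.677). Slc25a44 had control mouse 3 highest at 175 against 113.5 CPM (gap share 0.752). Control mouse 2 was highest in Slc5a6, at 23.2 against 15.5 CPM (gap share 0.779), and in Ppargc1a, at 42.7 against 25.2 CPM (gap share 0.694). BIBB-515 mouse 6 was highest in Gldc, at 366 against 296 CPM (gap share 0.681), and lowest in Esrra, at 40.9 against 49.7 CPM (gap share 0.628).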

How the results depend on the processing

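No paired analysis was made, because the labels tie no control mouse to a BIBB-515 mouse and the sample numbers are not said to mark pairs. The number of breakdown genes called, 1, was 3 with DESeq2, which called 18% of all tested genes and where Mccc2 (0.17) and Hibch (0.14) passed the threshold, and 0 without a filter on low counts and with 1 surrogate variable, where Mccc1 (0.22 and 0.20) did not pass. Other pathway genes called, 2, both higher, were 3 with DESeq2, Acat1 among them and lower, and 1 with the likelihood ratio test, without a filter and with 1 surrogate variable. Dbt turned to 0.0161 with limma-voom, and the log2 ratio of Bckdk to Ppm1k per kb in control mice turned from -0.83 to 1.06 over inner exons, a reading added after the data were seen, as was the spread without control mouse 3. With 1 mouse left out, 0 to 1 breakdown genes, 1 to 3 other pathway genes (1 of them lower without control mouse 2, 3 or 6) and 4 to 8 of the genes around the pathway (8 without control mouse 3) were called, and log2 fold changes ran from -0.0155 to 0.0496 for Bckdhb, -0.0689 to 0.0767 for Dbt, 0.10 to 0.20 for Bckdk, -0.0889 to 0.188 for Ppm1k, 0.18 to 0.26 for Mccc1, 0.14 to 0.21 for Mccc2, 0.13 to 0.16 for Hibch, -0.0232 to 0.0823 for Acad8 and -0.0108 to 0.0907 for Aldh6a1. Without 1 BIBB-515 mouse, 9.61% to 11.1% of all tested genes were called, and without 1 control mouse 10.4% to 15%. Without control mouse 3 the share was 14.6% of all tested genes, against 23.5% of the genes around the pathway. Of all tested genes, 15.5% were called with the likelihood ratio test, 8.15% without a filter and 13.7% with 1 surrogate variable. The cause of these changes in calls and estimates was not tested. The direction of Bckdha, Bckdk, Ivd, Mccc1, Mccc2 and Hibch (above 0) and of Dld (below 0) was the same in all 8 other settings and all 12 fits with 1 mouse left out. The interval of the log2 fold change was widest in Ppm1k.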
